A study of Mus musculus with 3 samples.

Results

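The genes described here are 10 precursors of neuropeptides used by neurons of the spinal dorsal horn, namely Tac1, Tac2, Penk, Pdyn, Sst, Npy, Nts, Grp, Cck and Gal. They were chosen by gene symbol, and 10 of 10 were found among the 31040 genes of a single-nucleus RNA-seq table of mouse lumbar spinal cord. The study compared 6 transgenic mice of the strain B6.Cg-Tg(SOD1*G93A)1Gur/J (SOD1G93A) with 6 C57BL/6J littermates that lack the transgene (WT), all at the age of 90 days. Each genotype was represented by 3 females and 3 males. The transgene is a high-copy human SOD1 gene with a mutation of familial ALS, so a difference between the genotypes is one between mice with and without many copies of a mutant human gene. Nuclei of 1 mouse from each combination of sex and genotype were tagged and loaded together, which gave 3 pools called A, B and C.

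Neuropeptides are cut from longer precursor proteins, stored in dense-core vesicles and released beside fast transmitters to act on G protein-coupled receptors. In the dorsal horn, which receives touch, itch, pain and temperature signals from the skin, different local neurons make different peptides, and the peptides are widely used as markers of these neurons. The tachykinins, neurotensin, gastrin-releasing peptide and cholecystokinin are best known from excitatory neurons, while neuropeptide Y, galanin and dynorphin mark inhibitory groups and somatostatin and enkephalin occur in both kinds.

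The table held 206486779 unique molecular identifiers (UMIs, each marking 1 captured RNA molecule) in 14662 nuclei, and the 12 mice had between 6411715 and 36668441 UMIs each. The precursors took 22229 UMIs, or 0.01077% of the total, so that their counts per mouse were small. Of 8800 neuron nuclei, the deposited annotation named 3089 dorsal excitatory (DE) and 1589 dorsal inhibitory (DI), and 27 had no sub-type. Markers separated DE from DI. The dorsal excitatory genes Lmx1b, Prrxl1 and Ebf2 summed to 1138 counts per 1000000 UMIs of the class (CPM) in DE and 121.4 in DI. The dorsal inhibitory genes Gad1, Pax2 and Pax8 summed to 457.0 in DI and 19.63 in DE. They also reached 262.0 CPM in mid inhibitory and 143.7 CPM in ventral inhibitory neurons, so they do not mark dorsal neurons alone. Genes of sensory ganglion neurons, whose fibres enter the dorsal horn, were mostly low in DE, with 5 of 6 markers under 1 CPM (Scn10a and Mrgprd at 0.02696 CPM), except Calca, which stood at 11.43 CPM in DE, 5.496 in DI and 6.147 in oligodendrocytes. Cell barcodes shared by 2 pools numbered 15 and touched 30 nuclei.

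Tac1 and Tac2 are relatives, and the stretches below show how close their coding sequences come, since reads are assigned to a gene by its letters. Capitals mark the codons of the 8 residues that both precursors have in common, which are the end of neurokinin A or neurokinin B with the amidation and cleavage signal that follows it. The bases were read from GRCm38 with the GENCODE M21 transcripts, on chr6:7557743-7559148 (plus strand, spliced) for Tac1 and chr10:127728476-127729163 (plus strand, spliced) for Tac2.
Tac1: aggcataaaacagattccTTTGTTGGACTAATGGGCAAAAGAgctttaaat
Tac2: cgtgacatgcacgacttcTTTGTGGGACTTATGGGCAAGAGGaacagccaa
Of the 24 capital bases, 4 differ. Over all 45 pairs of the 10 transcripts, the longest run of letters in common was 15 bases in the spliced sequence, and introns were not compared. The genes differ in how much of them is exon, from 8.3% of Npy to 52.0% of Sst, and reads in introns were counted too, so levels are compared here between classes of nuclei within a gene and not between genes. Penk is overlapped on the other strand by A830012C17Rik and Grp by AC152076.4, and whether the counting used the strand is not given in the sources used here.

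The sub-types, and the finer reference classes to which the authors mapped the neurons, were derived from expression that includes these genes. Levels across classes are therefore a description with no test. In the 36 reference classes with at least 50 nuclei, the precursors ranged from those held mainly by 1 class to those spread over many. Nts, the precursor of neurotensin, reached 745.3 CPM in the 148 nuclei of DE_6 and 49.90 CPM in the next class, DE_4. The DE_6 nuclei made up 1.682% of the neurons and held 58.67% of their Nts UMIs. Among mice, Nts in DE_6 ran from 175.6 to 1170 CPM (median 759.6, n = 12), and its lowest mouse lay above the highest mouse of DE_4, at 106.6 CPM.

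Among the tachykinins, Tac2, the precursor of neurokinin B, stood at 253.5 CPM in DE_5 and 79.62 CPM in DE_6, and DE_5 held 57.0% of its neuron UMIs in 4.284% of the nuclei. In mice, Tac2 in DE_5 ran from 95.32 to 592.9 CPM and in DE_6 from 0 to 139.2 CPM, so these neighbours overlapped. A mid inhibitory class, MI_4, followed with 41.80 CPM of Tac2. Tac1, the precursor of substance P and neurokinin A, was shared between an excitatory class, DE_11 (131.9 CPM), and an inhibitory class, DI_1 (129.3 CPM), with mice from 58.02 to 201.7 CPM in DE_11 and from 0 to 248.0 CPM in DI_1. The top classes of Tac1 and Tac2 were different ones, and Tac1 stood next in DE_14, at 48.85 CPM.

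The opioid precursors differed in breadth. Penk, which encodes the enkephalins, was spread over DE_6 (142.0 CPM), DE_11 (131.0 CPM), DE_16 (102.8 CPM) and the inhibitory DI_5 (69.25 CPM), and its mice overlapped between all of them. Its first class, DE_6, held only 5.721% of the Penk UMIs of neurons. Pdyn, which encodes the dynorphins, was concentrated in DI_2 (99.32 CPM, mice from 41.06 to 304.4) and DE_15 (38.19 CPM, mice from 0 to 149.3). DI_2 held 37.47% of the Pdyn UMIs of neurons.

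DI_2 was also the first class of Gal, the precursor of galanin, with 72.51 CPM and 36.28% of the Gal UMIs of neurons, against 15.88 CPM in the next class, DI_3. Npy, the precursor of neuropeptide Y, stood at 88.52 CPM in DI_4 and at 30.37 CPM in DI_1, and mice ran from 0 to 165.1 CPM and from 0 to 54.75 CPM. Only for Pdyn, Npy and Gal was the first class inhibitory.

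Sst, the precursor of somatostatin, was high in a run of excitatory classes, with 174.5 CPM in DE_3, 173.3 in DE_4, 122.7 in DE_5 and 103.7 in DE_2, and the mice overlapped between neighbours. Cck, the precursor of cholecystokinin, stood at 205.2 CPM in DE_7 and 111.2 CPM in DE_4, with mice from 0 to 485.0 and from 0 to 234.7. Grp, the precursor of gastrin-releasing peptide, known for its part in itch, stood at 53.24 CPM in DE_1, 36.65 in DE_2 and 26.16 in DE_5, and was the least concentrated of the excitatory peptides after Penk and Sst, with 15.25% of its neuron UMIs in its first class. The mice in which a class had 0 UMIs of a member had few nuclei there, such as the 9 nuclei of DE_1 in male SOD1G93A pool C, where 0 Grp UMIs allow up to 38.81 CPM.

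**Figure D1:**
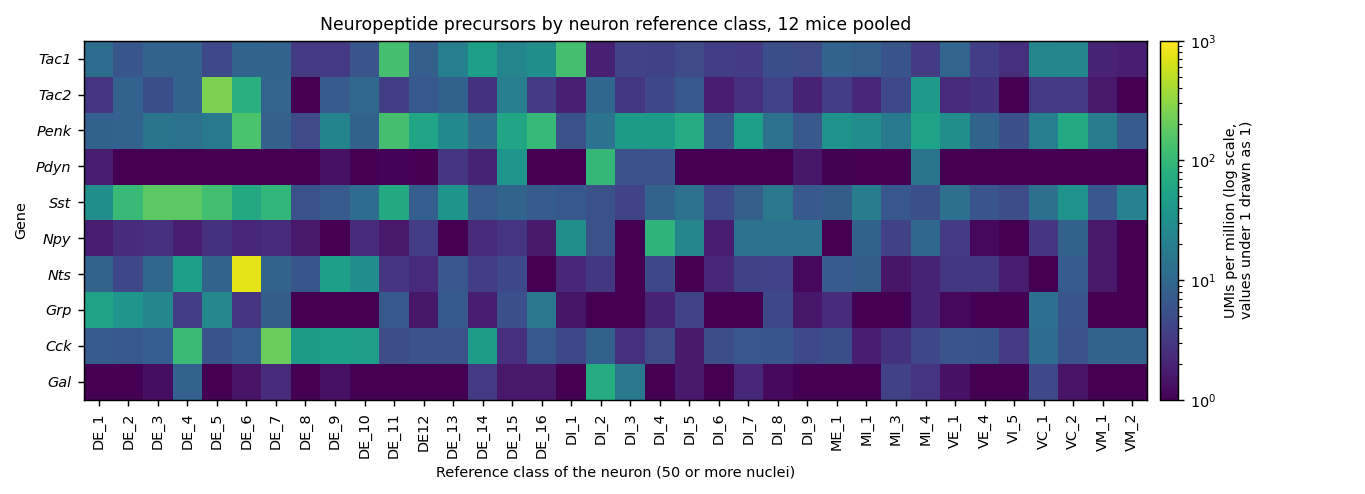
Level of each precursor (rows) in each of the 36 neuron reference classes with 50 or more nuclei (columns), as CPM pooled over 12 mice, on a logarithmic colour scale with values under 1 drawn as 1. The brightest cell is Nts in DE_6 at 745.3, Tac2 peaks in DE_5 at 253.5, and Pdyn and Gal share DI_2.

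Summed over whole sub-types, 7 precursors were higher in DE and 3 in DI, as pooled CPM. Tac2 stood at 40.55 CPM in DE and 4.214 in DI, Sst at 53.28 and 8.016, Nts at 38.26 and 4.306, Cck at 27.83 and 5.038, and Grp at 11.41 and 1.557. Tac1 (26.96 and 20.20 CPM) and Penk (39.72 and 23.22 CPM) were the most evenly divided. Npy was at 2.157 CPM in DE and 19.01 in DI, Gal at 1.456 and 7.924, and Pdyn at 3.856 and 9.390.

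Free RNA in droplets can give UMIs of a peptide in nuclei that do not make it, and its part here was not tested. Oligodendrocytes, which are not known as a source of these peptides, were taken as the reference, and a share at or under theirs is not read as expression. Each nucleus was thinned to 5000 UMIs and shallower nuclei were left out, which kept 2773 DE, 1495 DI and 1293 oligodendrocyte nuclei. The untouched medians were 10188 UMIs in DE, 11763 in DI and 5786 in oligodendrocytes. A Sst UMI was then found in 20.32% of DE, 4.006% of DI and 6.698% of oligodendrocyte nuclei (31.50%, 8.811% and 9.423% before thinning), so the DI share was under that of the reference. The same held in DI for Tac2 (1.636% against 2.769% in oligodendrocytes), Nts (1.546% against 2.191%), Grp (0.8205% against 0.9610%) and Cck (2.530% against 3.173%). In DE it held for Npy (0.9168% against 1.861%) and Gal (0.7198% against 0.8744%). For Grp and Cck in DI and Gal in DE this order rested on the thinning, since the shares before it were higher than in oligodendrocytes (1.951% against 1.478%, 5.790% against 5.358% and 1.586% against 1.155%). Tac1 was above the oligodendrocyte share in both sub-types, with 10.41% of DE, 6.071% of DI and 3.746% of oligodendrocyte nuclei. Penk was so as well, with 15.43%, 10.38% and 5.231%. Pdyn was found in 1.393% of DE and 3.864% of DI against 0.7029% of oligodendrocyte nuclei. Astrocytes at the same depth were higher than oligodendrocytes for each precursor, for example 11.62% for Sst and 8.558% for Penk, and Tac1 in DI nuclei lay under the astrocyte share of 6.723%.

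Summed over the 10 precursors, DE neurons stood at 245.5 CPM, DI neurons at 102.9 CPM and all neurons together at 108.2 CPM. Above all neurons together stood 3 classes outside the neurons. These were astrocytes at 122.9 CPM, ependymal cells at 190.4 CPM on 48 UMIs, and the mixed class of Schwann and meningeal cells at 790.4 CPM. Of these, only the mixed class stood above DE. This mixed class had a median of 1584 UMIs per nucleus, and there Sst reached 176.5 CPM, Penk 131.8 CPM, Cck 108.1 CPM, Tac1 90.01 CPM and Tac2 88.11 CPM. At 1000 UMIs per nucleus, a Sst UMI was found in 17.70% of its nuclei against 6.041% in DE. Markers of other cells were also high in this class, with the excitatory Slc17a6 at 217.7 CPM (119.4 CPM in DE), the 5 inhibitory markers at 718.2 CPM (571.9 in DI) and the oligodendrocyte gene Mbp at 1520 CPM, while the Schwann gene Prx was at 2.219 CPM. The part of free RNA and of mixed nuclei in these levels was not tested. The class also held the nucleus with the most Npy UMIs, 71 in a nucleus of 185932 UMIs, and the one with the most Penk UMIs, 26.

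**Figure D2:**
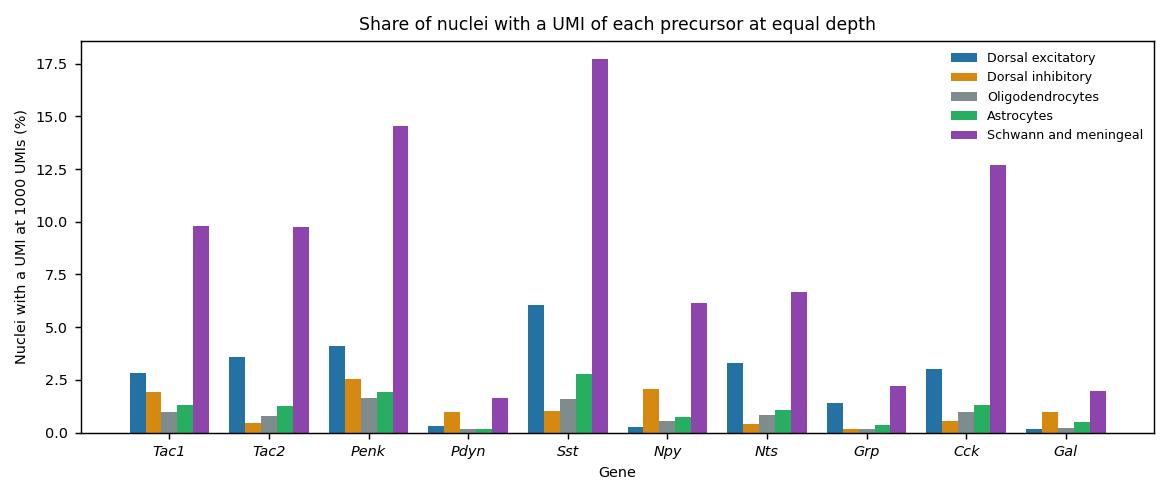
Percent of nuclei (y axis) with at least 1 UMI of each precursor (x axis) after thinning to 1000 UMIs, with a bar for each of 5 classes of nuclei. The Schwann and meningeal class exceeds the others for every precursor, with 17.70% for Sst, and DI exceeds DE only for Pdyn, Npy and Gal.

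To see which peptides met in 1 nucleus, nuclei with 3 or more UMIs of a precursor were counted, a level that 26 oligodendrocyte nuclei (1.201%) reached for any precursor. It was reached by 781 DE nuclei (25.28%) and 157 DI nuclei (9.88%). In DE, 196 nuclei reached it for at least 2 precursors, and in DI, 9 did. Tac2 and Sst met most often, in 68 nuclei, which were 37.16% of the 183 nuclei at this level for Tac2 and 29.18% of the 233 for Sst. Of the Tac2 nuclei, 72.13% had a Sst UMI, against 31.50% of all DE nuclei. In oligodendrocytes, 4 of 4 nuclei at this level for Tac2 also had a Sst UMI, against 9.423% of the class. Penk met Nts in 32 nuclei and Tac1 in 30, and 55.12% of the Tac1 nuclei had a Penk UMI against 25.74% of DE. Sst met Penk in 22 nuclei and Cck in 20. The product of the shares of DE nuclei gives 13.8 for Tac2 with Sst, 7.972 for Penk with Nts and 6.66 for Tac1 with Penk. It gives 12.22 for Sst with Penk and 8.825 for Sst with Cck, nearer to their counts. The tachykinins Tac1 and Tac2 met in only 2 nuclei of 127 and 183, where the product of the shares gives 7.524. These counts are nuclei of shared mice and classes, were not matched for depth and were not tested, and nuclei with unmarked doublets were not removed.

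**Figure D3:**
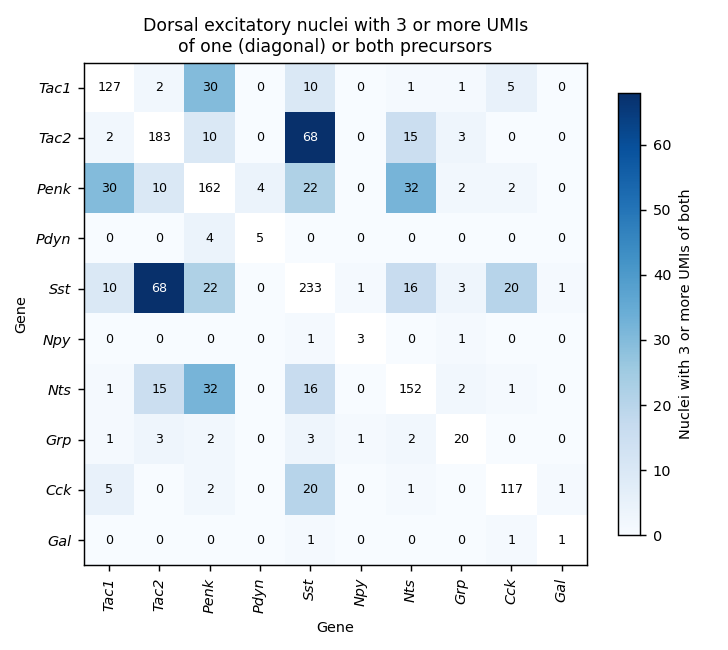
Number of DE nuclei with 3 or more UMIs of both precursors (off the diagonal, coloured from 0 to 68) or of the precursor itself (diagonal). Tac2 with Sst is the darkest pair at 68, followed by Penk with Nts at 32 and Tac1 with Penk at 30, while Tac1 with Tac2 is at 2.

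The genotypes were compared with limma on UMIs summed per mouse, with the mouse as replicate, the pool as a term and adjustment over all genes tested in a class. A gene was called at an adjusted p under 0.1. In all neurons together, 0 of 10 precursors were called by limma, and edgeR and DESeq2 called 0 as well. The background in this comparison was 0.0255% of genes called (4 of 15681). An unadjusted p under 0.05 was found for 1 precursor and for 4.16% of all genes. Fewer nuclei of a type and less RNA per nucleus cannot be told apart in sums over all neurons. The share of DE among neurons was 35.15% ± 3.235 (SD, n = 6) in WT and 35.62% ± 4.925 in SOD1G93A mice, and that of DI 17.75% ± 2.01 and 19.42% ± 3.474. DE and DI together ran from 47.4% to 57.08% in WT and from 47.01% to 65.29% in SOD1G93A mice. The part of this make-up in the sums was not tested. Of 9 sub-types, 0 differed in abundance by edgeR's quasi-likelihood test and 0 had an unadjusted p under 0.05, the smallest adjusted p being 0.7467.

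In DE neurons, limma could test 7 precursors, since Pdyn, Npy and Gal did not pass the filter on low counts. Of these, 0 were called, against a background of 0.0329% of genes called (4 of 12175), and 0 had an unadjusted p under 0.05, against 6.70% of all genes. In DI neurons, 7 were tested and Tac2, Nts and Grp were not. Of these 7, 0 were called, against 0.0190% of genes called (2 of 10505), and 1 had an unadjusted p under 0.05, against 4.11% of all genes.

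Tac1 in DE neurons had a lowest, median and highest mouse of 18.99, 26.88 and 41.13 CPM in WT, and of 14.36, 23.60 and 28.78 CPM in SOD1G93A mice. The SOD1G93A mice reached lower at both ends, while 2 of 6 pairs of the same sex and pool had the SOD1G93A mouse higher. The log2 difference was -0.31 (SE 0.19, 95% interval -0.71 to 0.09, limma adjusted p = 0.823), and ran from -0.48 without male SOD1G93A pool A to -0.16 without female WT pool B. Tac2 in DE, with 21.31, 38.58 and 55.21 CPM in WT and 15.09, 39.11 and 53.02 in SOD1G93A mice, differed by -0.05 (interval -0.41 to 0.31), and the medians were nearly equal. The Tac2 difference ran from -0.28 without female SOD1G93A pool B to 0.09 without male SOD1G93A pool B.

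Penk had estimates of opposite sign in the sub-types, and neither was called. In DE it stood at 26.05, 34.78 and 46.18 CPM in WT and 25.36, 42.74 and 54.91 in SOD1G93A mice, a log2 difference of 0.20 (interval -0.08 to 0.49), and 0.07 without female SOD1G93A pool B. In DI it stood at 13.13, 24.02 and 26.96 CPM in WT and 9.975, 15.20 and 34.26 in SOD1G93A mice, a difference of -0.32 (interval -0.69 to 0.05), with 1 of 6 pairs higher in SOD1G93A, and -0.21 without female WT pool C. Whether these differences differ between the sub-types was not tested.

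Of the 24 tests in all neurons, DE and DI, the largest log2 difference was that of Pdyn in DI. There it stood at 3.090, 6.114 and 10.22 CPM in WT and at 4.130, 7.322 and 29.14 in SOD1G93A mice, and 5 of 6 pairs had the SOD1G93A mouse higher. Only 1 SOD1G93A mouse, male SOD1G93A pool A, lay far above the WT range, and 1 more, male SOD1G93A pool B, at 12.58 CPM, lay above it. The log2 difference was 0.61 (SE 0.26, 95% interval 0.07 to 1.15, limma adjusted p = 0.9995), so it was not called. It was 0.37 without female SOD1G93A pool B and 0.87 without female SOD1G93A pool A. In all neurons it was 0.51 (SE 0.23, limma adjusted p of 1), and 0.27 without male SOD1G93A pool A. That mouse held a DE_15 nucleus with 37 Pdyn UMIs, 8.506% of all Pdyn UMIs of neurons, and a DI nucleus with 31. Without its top nucleus in each class the mouse stood at 17.03 CPM in DI, 2.872 CPM in DE (11.68 with it) and 5.795 CPM in all neurons (7.999 with it).

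Among the precursors of excitatory neurons, Sst in DE stood at 35.01, 46.48 and 65.90 CPM in WT and spread wider in SOD1G93A mice, at 16.30, 57.00 and 81.80 CPM, with a log2 difference of 0.12 (interval -0.34 to 0.58), and -0.11 without female SOD1G93A pool B. Nts in DE stood at 31.27, 38.98 and 65.45 CPM in WT and 7.849, 38.42 and 46.02 in SOD1G93A mice, with a difference of -0.27 (interval -0.90 to 0.35). Its lowest mouse, female SOD1G93A pool C, decided the sign: without it the difference was 0.11. Grp in DE stood at 6.088, 9.329 and 13.95 CPM in WT and 2.415, 9.562 and 21.22 in SOD1G93A mice, with a difference of 0.15 (interval -0.32 to 0.62), and -0.10 without female SOD1G93A pool B. Cck in DE stood at 15.22, 29.27 and 36.56 CPM in WT and 9.661, 30.21 and 37.65 in SOD1G93A mice, with a difference of -0.23 (interval -0.68 to 0.21), and -0.03 without male SOD1G93A pool B. The medians of Nts and of Cck were nearly equal in the genotypes. The same mice recurred in DE, so these precursors are not separate results. Female SOD1G93A pool C was the lowest SOD1G93A mouse for Tac2, Penk, Pdyn, Sst, Nts, Grp, Cck and Gal, though not for Tac1 and Npy. Leaving out female SOD1G93A pool B gave the lowest estimate for each precursor tested in DE except Tac1.

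Among neurons, DI held 59.63% of the Npy UMIs and 52.74% of the Gal UMIs, while 57.95% and 65.08% of all their UMIs were in neurons. Npy in DI stood at 9.764, 16.15 and 31.36 CPM in WT and 6.650, 14.32 and 28.45 in SOD1G93A mice (log2 difference -0.08, interval -0.54 to 0.37). Its difference ran from -0.31 without female SOD1G93A pool B to 0.18 without female WT pool B. Gal in DI stood at 1.698, 7.601 and 11.85 CPM in WT and 1.032, 5.941 and 13.78 in SOD1G93A mice (difference -0.17, interval -0.88 to 0.53). Its difference ran from -0.64 without female SOD1G93A pool B to 0.23 without female SOD1G93A pool A. Tac1 in DI was the least certain, with an interval from -1.26 to 1.19 around -0.04, and 1 mouse, female SOD1G93A pool B, at 56.90 CPM, while the other SOD1G93A mice lay between 6.195 and 22.78 CPM.

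The precursors whose thinned share in DI was under that of oligodendrocytes had small counts there. Cck in DI stood at 1.274, 4.513 and 7.206 CPM in WT and at 2.398, 6.262 and 8.867 CPM in SOD1G93A mice, higher in 5 of 6 pairs, with a log2 difference of 0.58 (interval -0.06 to 1.21), and 0.36 without male WT pool A. Sst in DI stood at 5.392, 7.869 and 12.61 CPM in WT and at 1.108, 7.726 and 11.92 CPM in SOD1G93A mice, with a difference of -0.16 (interval -0.73 to 0.41). The Sst difference ran from -0.36 without female SOD1G93A pool B to 0.15 without male SOD1G93A pool A. Tac2, Nts and Grp, untested in DI, had medians of 2.341, 3.521 and 1.223 CPM in WT and of 5.807, 1.277 and 1.593 CPM in SOD1G93A mice, with overlapping mice. In female SOD1G93A pool C, 0 Nts UMIs in 55 DI nuclei allow up to 3.325 CPM. In DE the untested Npy and Gal were lowest at 0, in male SOD1G93A pool C for Npy (up to 1.872 CPM) and female SOD1G93A pool C for Gal (up to 1.811 CPM). Over all neurons, the log2 differences of the 10 precursors ran from -0.18 for Nts to 0.51 for Pdyn with a median of 0.07, and 7 of 10 were above 0, beside a median of 0.00 and 50.58% above 0 for all genes tested.

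**Figure D4:**
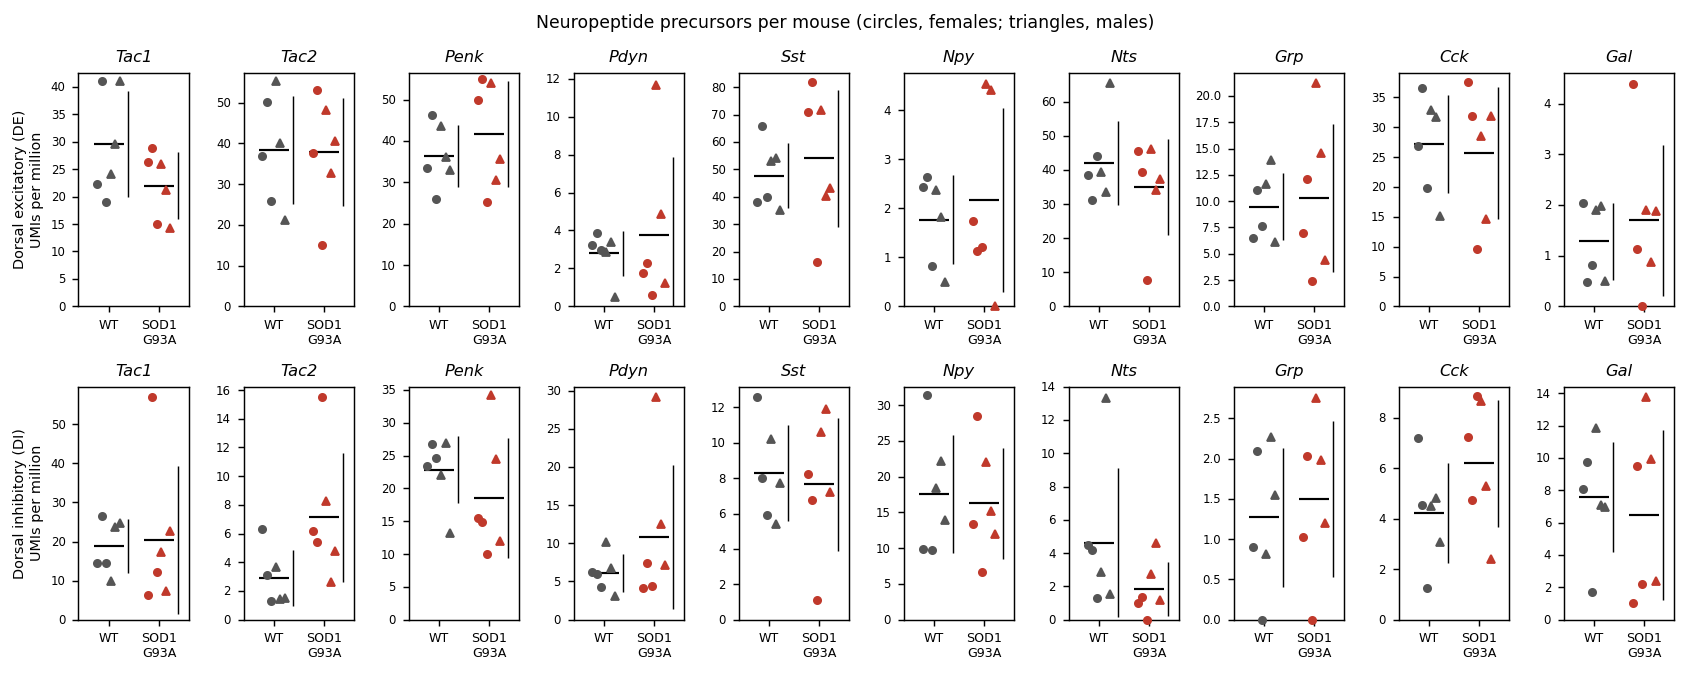
CPM of each precursor in DE (upper panels) and DI neurons (lower panels) of each mouse, with circles for females, triangles for males, grey for WT and red for SOD1G93A, and a horizontal line and vertical bar for the mean ± SD of 6 mice (bars end at 0). The genotypes overlap in every panel. Single mice of both genotypes stand apart, such as SOD1G93A mice for Pdyn (29.14 in DI) and Tac1 (56.90 in DI) and WT mice for Nts (65.45 in DE and 13.34 in DI).

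**Figure D5:**
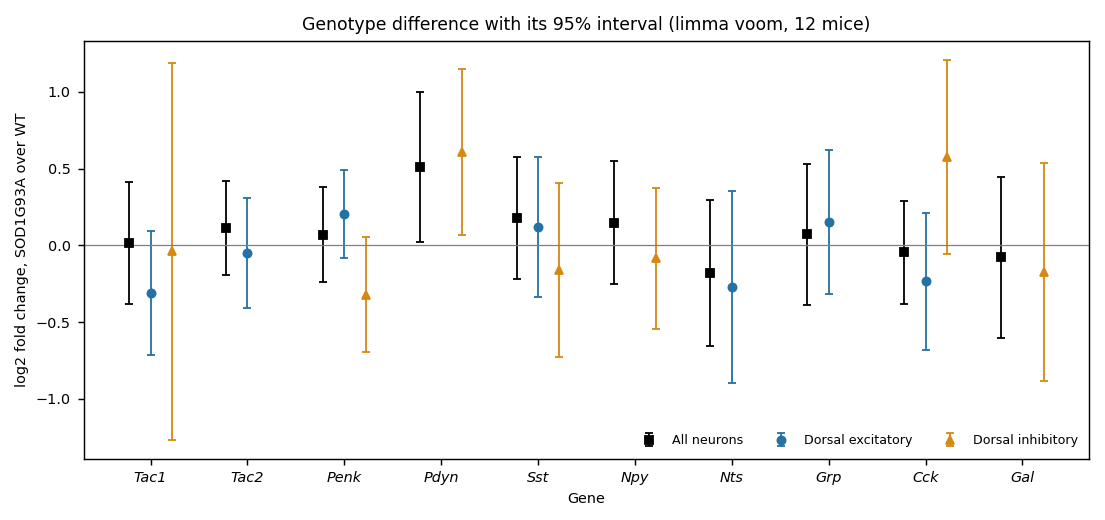
Log2 fold change of SOD1G93A over WT from limma (y axis) for each precursor (x axis) in all neurons (squares), DE (circles) and DI (triangles), with 95% intervals as bars, and no symbol where counts were too low to test. Only the intervals of Pdyn, 0.51 in all neurons and 0.61 in DI, lie above 0 before adjustment.

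Over 9 neuron sub-types, 28 tests of a precursor were possible and 0 were called by limma, edgeR or DESeq2, against a background of 0.0252% of tests called (19 of 75459). An unadjusted p under 0.05 by limma was found in 6 of the 28 and in 4.54% of all tests. The 6 were Pdyn in DI, Penk in the ventral excitatory VE neurons, Tac1 and Penk in the ventral cholinergic VC neurons, and Tac2 and Sst in neurons of unclear sub-type. Penk in VE was 0.45 higher on the log2 scale in SOD1G93A mice, in 6 of 6 pairs (limma adjusted p = 0.999). In VC, Tac1 was 0.80 higher (SE 0.32), at 16.63 CPM in WT and 32.90 in SOD1G93A mice on average. Penk in VC went the other way, with 39.64 CPM in WT and 24.88 in SOD1G93A mice and a log2 difference of -1.10 (SE 0.45), and both had a limma adjusted p of 0.9962. In neurons of unclear sub-type, Sst was 0.85 higher (SE 0.23, limma adjusted p = 0.3535) and Tac2 1.09 higher (SE 0.33, limma adjusted p = 0.4613). Restricting each precursor to its first reference class, an alternative added after the data had been seen, also gave 0 calls in 9 tests, with 0.151% of tests called over all genes (35 of 23213, of which 27 were in DE_5). The largest difference there was Cck in DE_7, at 258.3 ± 135.6 CPM in WT and 134.4 ± 105.5 in SOD1G93A mice (SD, n = 6), lower in 5 of 6 pairs. Of the 9 tests, 2 had an unadjusted p under 0.05, Cck in DE_7 and Npy in DI_4 (log2 difference -0.90, SE 0.40, limma adjusted p = 0.7474), and Grp in DE_1 was under the count filter. The share of all genes at this unadjusted level was not counted in these classes, so the 2 have no background to be read against. The log2 difference of Cck was -1.14 (SE 0.32, limma adjusted p = 0.3591), with between 5 and 35 nuclei of DE_7 per mouse.

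In the 9 other cell types, 21 tests were possible, 0 were called by limma, edgeR or DESeq2, while 0.728% of all tests were called (388 of 53303). An unadjusted p under 0.05 was found by limma in 2 of the 21 and in 8.07% of all tests. Both were in oligodendrocytes, where Nts ran from 0.6107 to 10.65 CPM in WT and from 5.967 to 13.27 CPM in SOD1G93A mice. Nts was higher in SOD1G93A in 6 of 6 pairs, by 1.22 on the log2 scale (SE 0.32, limma adjusted p = 0.6607), on 113 UMIs in all. Tac2 was 0.73 higher there (SE 0.31, limma adjusted p = 0.9997).

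The share of nuclei with a UMI at 5000 UMIs was compared by an exact sign-flip permutation test over the 6 pairs of mice, whose smallest possible two-sided p is 0.0312. Adjusted over the 10 precursors of a sub-type, a threshold of 0.1 could be passed only if several of them had a small p together. At the smallest p at least 4 were needed, and at a larger p more. The adjusted result was thus close to fixed by the design. Of 20 tests, 0 passed it and 0 had an unadjusted p under 0.05. The smallest p was 0.0625 (adjusted 0.3125, exact), for Tac2 and Pdyn in DI. The share of DI nuclei with Pdyn was 3.05% ± 1.04 (SD, n = 6) in WT and 4.29% ± 1.94 in SOD1G93A mice, higher in 5 of 6 pairs, and that with Tac2 1.202% ± 0.723 and 2.28% ± 1.39, both under the oligodendrocyte share of 2.769%.

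The sexes were compared with the genotypes averaged. In all neurons, 0 precursors were called by limma, edgeR or DESeq2, against 0.0701% of genes called (11 of 15681). An unadjusted p under 0.05 was found by limma for 2, Pdyn and Grp, and for 3.86% of all genes. Pdyn was at 2.01 ± 0.50 CPM in females and 3.32 ± 2.499 in males (SD, n = 6), and Grp at 2.96 ± 1.52 and 4.36 ± 2.04. The female minus male log2 differences were -0.60 for Pdyn (SE 0.23) and -0.57 for Grp (SE 0.22), both with a limma adjusted p of 0.9995. The difference of the genotype effects between males and females was called by limma for 0 precursors and for 0% of all genes (0 of 15681), and edgeR and DESeq2 called 0 precursors. An unadjusted p under 0.05 was found by limma for 1, Pdyn, and for 2.47% of all genes. In males, Pdyn in DI stood at 7.193, 12.58 and 29.14 CPM in the SOD1G93A mice and at 3.090, 6.811 and 10.22 CPM in the WT mice, higher in 3 of 3 pairs by 1.26 on the log2 scale (SE 0.29, limma adjusted p = 0.8954). In females it stood at 4.130, 4.434 and 7.451 CPM against 4.245, 5.923 and 6.305 CPM, a difference of -0.05 (SE 0.44). The difference between the sexes in this effect was 1.31 (SE 0.53, limma adjusted p = 0.9996). In DI this difference had an unadjusted p under 0.05 by limma for 3 of 7 precursors, Pdyn, Penk at 1.12 (SE 0.36) and Sst at 1.15 (SE 0.55), and for 3.28% of all genes, and 0 were called. In DE it had an unadjusted p under 0.05 by limma for 0 of 7 precursors and for 3.67% of all genes, and 0 were called. For Pdyn, the highest of the male mice was the one described above with a single nucleus of 31 Pdyn UMIs in DI.

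The receptors on which these peptides act, the enzymes that cut and load them, and other precursors were counted as 3 lists chosen by function. Of 21 receptors, limma tested 14 in DE and 10 in DI, and called 0, as against 0.0329% and 0.0190% of all genes. At an unadjusted p under 0.05 were 2 in DE, Tacr1 and Oprk1, and 0 in DI, against 6.70% and 4.11% of all genes. The median log2 difference of the tested receptors was -0.05 in DE and -0.08 in DI, beside 0.00 over all genes. The genes given by name are the 3 of each list with the most counts, which depend on gene length and introns and give no order of transcript levels between genes. Oprm1, the mu opioid receptor on which enkephalin acts, was at 101.2 ± 18.09 CPM in DE and 155.6 ± 31.09 in DI (SD, n = 12). Tacr3, the neurokinin B receptor, was at 43.14 ± 10.03 CPM in DE and 30.97 ± 10.73 in DI. The somatostatin receptor Sstr2 was at 17.39 ± 6.907 CPM in DI, and Tacr1, the substance P receptor, at 37.83 ± 11.6 CPM in DE. Tacr1 in DE was at 43.90 ± 11.05 CPM in WT and 31.76 ± 9.25 in SOD1G93A mice (SD, n = 6), a log2 difference of -0.44 (SE 0.15, limma adjusted p = 0.4967), with 1 of 6 pairs higher in SOD1G93A. Oprk1, the dynorphin receptor, named after its values were seen, differed by -0.37 in DE (SE 0.16, limma adjusted p = 0.6958). Tac1, the precursor of the Tacr1 ligand, also had a lower mean in the SOD1G93A mice in DE, with a log2 difference of -0.31, and neither passed the threshold.

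Of 14 genes of precursor processing and dense-core vesicles, 14 were tested in DE and in DI and 0 were called (0.0329% and 0.0190% of all genes), with 0 at an unadjusted p under 0.05 (6.70% and 4.11% of all genes) and median log2 differences of 0.02 and -0.02. Cadps, a priming factor of dense-core vesicles, Pam, which amidates peptides, and Pcsk2, a convertase that cuts precursors, had the most counts in both sub-types. Their log2 differences between genotypes in DE were -0.03 (SE 0.06), 0.06 (SE 0.08) and -0.05 (SE 0.09), smaller errors than those of any precursor. Of 13 other precursors, 4 were tested in DE and 3 in DI and, against these same shares of all genes, 0 were called and 0 had an unadjusted p under 0.05. Nmu (neuromedin U, 52.03 ± 20.45 CPM), Adcyap1 (PACAP, 17.16 ± 4.293) and Calca (CGRP, 10.11 ± 4.693) had the most counts in DE, and Pnoc (nociceptin, 21.93 ± 9.5), Nppc (C-type natriuretic peptide, 14.03 ± 4.993) and Cartpt (CART, 5.386 ± 6.128) in DI.

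Genes with the most similar pattern were ranked over 43 neuron clusters of the deposited clustering with at least 50 nuclei, by Pearson's r of log2(CPM + 1) among 14477 genes. The clusters share mice and libraries, so r is a description. Sst was closest to Vwa3b (r = 0.81), Cfap69 (0.80) and Mtss1 (0.78), and Vwa3b was also the third closest to Tac2 (0.65), after Prelid2 and D030055H07Rik. Cck was closest to Mafa (0.76), which encodes a transcription factor, and both peaked in the same cluster. Gal was closest to Ptprk (0.75), a receptor tyrosine phosphatase, which peaked in the same cluster as well. Nts was closest to Gpld1 (0.72) and Noct (0.72), and then to Dmrt2 (0.68), a transcription factor gene that peaked in the cluster of highest Nts. For Grp, the closest were Hnrnpr, Trip4 and Pcm1 (0.77, 0.77 and 0.76). Npy was closest to Rftn1 (0.67), Pdyn to Vwa5b1 (0.61), Penk to Kcnn3 (0.64) and Tac1 to Mrpl33 (0.59), the lowest first value of the 10.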

How the data were processed

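As described in the study's methods, nuclei of lumbar spinal cord were tagged by mouse and loaded on the 10x platform in 3 pools. The authors aligned reads to a pre-mRNA version of mm10, so introns were counted, and deposited the counts as raw UMIs per gene and nucleus. Their filters required 200 genes per nucleus, allowed 10% mitochondrial UMIs, and dropped ambiguous hashtags. Doublets within 1 mouse are not marked and no doublet caller was run here. The submitters' processing notes name bcl2fastq 2.20.0.422, STAR 2.5.1b, Cell Ranger 3.1, Seurat 4.0.3 and R 4.0.3. Cell types, neuron sub-types, reference classes and clusters are those deposited. The deposited integrated values were not used.

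UMIs were summed per mouse over each class, and CPM is the UMIs of a gene per 1000000 UMIs of that sum. Genes were filtered with filterByExpr (minimum count 10), scaled with TMMwsp and tested with limma's voom and robust eBayes (limma 3.58.1, edgeR 4.0.16, R 4.3.3), with terms for the 4 groups of sex and genotype and for the pool. P values were adjusted by Benjamini-Hochberg over all genes of a class, with a threshold of 0.1. For abundance, edgeR's quasi-likelihood test was run on nuclei per sub-type, with a threshold of 0.05. Shares were tested by an exact sign-flip permutation over 64 sign patterns. Replicate letters of the pools pair the mice, since each pool was 1 batch, and a pair joins mice of both genotypes that share sex and pool. DESeq2 1.42.0, edgeR, TMM, other filters, no pool term and leaving out each mouse were alternatives. The code recovered most of the large known changes in simulated counts of the better-counted DE genes. Pool effects, and changes as small as most of those estimated here, were not simulated. Where a mouse has 0 UMIs, 3 counts give the level that a 0 allows. Such limits cover counting error only. The Python version was 3.11.15, with scipy 1.17.1.

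The members and the lists of receptors, processing genes and other precursors were chosen with earlier results of these data known. The genes named are all members, in each list every gene called and the 3 of highest mean CPM, and for each member the 3 genes of highest r (for some only the first is printed). Any other gene named, such as a cell type marker, is there as a check. Some marker genes and 1 sequence are not reported here.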

Additional observations from a re-analysis of the deposited data

Results flagged for a closer look

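In groups of 6 mice, the gap of the highest or lowest mouse to the next was compared with the range of its group by Dixon's ratio. Of 60 groups of a precursor, sub-type or all neurons, and genotype, 8 held a mouse past this value, where chance gives about 5%, or 1 in 20. Pdyn in male SOD1G93A pool A stood apart in all neurons (7.999 CPM, the others between 1.099 and 3.675) and in DI (29.14 CPM, the others between 4.130 and 12.58). Pdyn in DE was low in male WT pool C (0.5074 CPM, the others between 2.844 and 3.848).

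Nts in DE was low in female SOD1G93A pool C (7.849 CPM, the others between 34.03 and 46.02) and high in male WT pool C (65.45 CPM, the others between 31.27 and 43.95). Nts in DI was high in male WT pool B (13.34 CPM, the others between 1.274 and 4.504), Tac1 in DI in female SOD1G93A pool B (56.90 CPM, the others between 6.195 and 22.78), and Penk in DI was low in male WT pool C (13.13 CPM, the others between 22.07 and 26.96).

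For Pdyn in DE, the SOD1G93A mouse was lower than its WT pair in all 3 female pairs (mean difference -1.82 CPM) and higher in all 3 male pairs (mean 3.69 CPM), so the differences moved in opposite directions and were 5.505 CPM apart. This was not tested, since Pdyn was under the count filter in DE, and 37 of the UMIs behind it were in 1 nucleus of male SOD1G93A pool A. Without that nucleus the mouse stood at 2.872 CPM, against 2.844 CPM with all nuclei of its WT pair. The male pair of pool C had 2 Pdyn UMIs in the SOD1G93A mouse and 1 in the WT mouse.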

How the results depend on the processing

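Over 121 alternatives, the number of precursors called, or of sub-types and shares that passed, stayed at 0 in 117. Of these, 10 concern the test of shares, 6 without a pair (smallest exact permutation p 0.0625) and 4 with all pairs (0.0312), with an adjusted threshold nearly out of reach, so they say nothing about stability. Among neurons, few genes of any kind were called by limma, 4 of 15681 in all neurons and 19 of 75459 tests in the sub-types. A steady 0 there shows little about stability. In the other cell types the number of precursors called ranged from 0 to 1 when each mouse was left out in turn. The call was Nts in microglia (113 UMIs, 17 of them in 1 nucleus), higher in SOD1G93A. It arose without female SOD1G93A pool A (log2 difference 2.36), female WT pool A (2.22), male SOD1G93A pool B (2.497) or male SOD1G93A pool C (2.19). With all 12 mice, Nts in microglia did not pass the filter on low counts. Without that filter, which kept every gene with a UMI, all 12 mice gave 86 precursor tests in the other cell types. Of these, 0 were called. In the microglia class, the dorsal excitatory genes stood at 237.3 CPM and the microglia genes Cx3cr1, Csf1r and Ptprc at 74.58 CPM. The dorsal excitatory genes ran from 94.92 to 330.3 CPM in WT and from 247.5 to 520.0 CPM in SOD1G93A mice there. Whether the Nts UMIs of this class came from microglia was not tested. Leaving out a mouse gave 0 in all other comparisons. Dropping the pool term, so that the fit had no replicate block, left 0 precursors called in every comparison, and the block thus changed no call.

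Counts over all genes moved more. DESeq2 called 17 genes by genotype in all neurons (4 by limma) and 58 in the sub-types (19). Without the pool term, the counts were 1, 7 and, in the other cell types, 154 (388), and without the filter on low counts 91 in the sub-types and 683 in the other cell types. Of 24 tests in all neurons, DE and DI, the sign turned under at least 1 setting in 16 and under none in 8, and most often for Tac1, in all neurons (8 settings) and DI (7 settings). Small counts limit the precision, with between 1 and 74 Pdyn UMIs per mouse in DE and DI. Restriction to the first reference class and Pdyn without its top nucleus were added after the data had been seen. The difference of the genotype effects between the sexes was planned for all neurons only, so its fits in DE and DI are additions to the plan.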

Other observations

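The make-up of the precursor UMIs differed between the sub-types. Sst made up 21.70% of the precursor UMIs in DE and 7.792% in DI, while Npy made up 0.8787% and 18.48%. In the mid excitatory ME neurons, Penk made up 45.70% of 186 precursor UMIs. Nuclei with 10 or more UMIs of a precursor numbered 43 for Nts, 34 for Tac2, 17 for Sst, 15 for Penk, 13 for Tac1 and 0 for Gal. The nucleus with the most Nts UMIs, 54, was a DE_6 nucleus of male WT pool C.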
